A study of Caenorhabditis elegans with 8 samples.

Results

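The proteasome subunit genes of C. elegans were taken as every gene listed in both expression tables whose symbol begins with pas-, pbs-, rpt- or rpn-. There were 32 such genes among 46739 listed gene IDs, and all 32 were detected above the filter in both tables. Of these, 14 encode the core particle, with 7 alpha (pas) and 7 beta (pbs) subunits, and 18 encode the regulatory particle. The regulatory genes comprise 6 ATPases (rpt), 3 other subunits of the base (rpn-1, rpn-2 and rpn-10) and 9 of the lid, with rpn-6.1 and rpn-6.2 counted as separate lid genes. The ubiquitin receptor gene rpn-13 is listed in the tables under its sequence name, C56G2.7, and so lies outside this rule.

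The study compared the germline of worms carrying nmad-1(ok3133), a deletion in the gene of the putative DNA demethylase NMAD-1, with that of wild-type (WT) N2 worms. For each group, germlines of 100 worms, labelled as L4 stage, were pooled, and their mRNA was sequenced. The groups were nmad-1 at 20°C, WT at 20°C, nmad-1 at 25°C and WT at 25°C, each with 2 libraries that the methods call biological replicates. The 2 libraries of a group carry no replicate numbers in the tables and are called A and B. The values are normalized expected counts, which are estimates of the reads per gene after division by the size factor of the library, and the tables of 20°C and 25°C were normalized separately.

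The proteasome degrades proteins that carry ubiquitin chains. Its core particle is a barrel of stacked rings: the alpha rings at the ends gate the entrance, and the beta rings inside hold the protease sites. The regulatory particle caps the barrel, and its base unfolds the substrate with a ring of ATPases while its lid removes the ubiquitin. In the C. elegans germline, the proteasome acts in meiotic prophase, in the meiotic divisions and in the switch from sperm to oocyte development.

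As a check of the genotype, the nmad-1 transcript (F09F7.7 in the tables) had 114 and 131 normalized expected counts in nmad-1 at 20°C, against 540.3 and 471 in WT, and 170.4 and 170.5 in nmad-1 at 25°C, against 764 and 753 in WT. It fell at both temperatures, with log2 fold changes of -2.04 at 20°C and -2.15 at 25°C (limma, Benjamini-Hochberg adjusted p = 6.0e-05 and 0.00015). One library, nmad-1 A at 20°C, stood apart from the other 7: ribosomal RNA genes took 34.8% of its values, against 22.2% to 28.5% elsewhere, and body wall muscle markers took 0.422% of its values outside ribosomal RNA genes, the highest of any library. Calls of the proteasome genes at 20°C and in the interaction are given with and without it. Library nmad-1 B at 20°C departed in another measure. Intestine markers took 1.19% of its values outside ribosomal RNA genes, against 0.449% in nmad-1 A and 0.666% and 0.776% in WT. The estimated depth was 18451560 to 33429408 reads per library. At 25°C, markers of other cells moved together with the genotype. All 6 sperm markers tested (of 8 listed), 6 of 7 muscle, 6 of 7 intestine, 6 of 8 neuron, 2 of 5 cuticle and epidermis and 1 of 6 sheath and spermatheca markers were higher in nmad-1. All 10 germ cell and all 6 oocyte markers were lower there, and 1 cuticle and 2 sheath markers were lower as well. The germ cell and oocyte medians were -0.92 and -0.82 on the deposited scale. They were 0.21 and 0.31 when libraries were scaled on ribosomal protein genes. Of all genes tested on the deposited scale, 38% were lower and 32.8% higher. Of the 1666 genes expressed at the level of the proteasome genes, 84.3% were lower. The markers were not matched for level. Sperm markers together took 0.00739% and 0.00911% of the values in nmad-1 at 25°C, against 0.00219% and 0.00204% in WT, and intestine markers took 0.493% and 1.68%, against 0.138% and 0.235%. The epidermal marker rol-6 was listed at 0 in all 4 libraries of 25°C. The part of these cells in the results below was not tested. Because these are bulk samples, fewer cells of a type and less RNA per cell cannot be told apart.

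At 25°C the whole proteasome gene set was lower in nmad-1 germlines on the deposited scale, and every one of the 32 genes passed the test. With libraries scaled on ribosomal protein genes, 10 of the 32 passed as higher and none as lower, against 85.5% and 0.449% of all genes. On the deposited scale the median log2 fold change was -0.90, and expression in nmad-1 stood at a median of 53.6% of WT, from 40.5% for pas-2 to 68.7% for rpn-6.1. Across all 11955 genes tested, 38% passed as lower and 32.8% as higher, and the median log2 fold change was -0.09. Both nmad-1 values lay below both WT values for all 32 genes, against 46.7% of all genes tested. The adjusted p-values (limma, Benjamini-Hochberg) lay between 0.00017 and 0.0013, with standard errors between 0.087 and 0.14.

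Expression level has to be considered here, because well expressed genes were mostly lower in nmad-1 on the deposited scale. The counts and medians of this paragraph hold for that scale only. Among the 1666 genes with a mean between 2753 and 11630, the range of the members other than the weakly expressed rpn-6.2, 84.3% passed as lower, only 33 passed as higher, and the median log2 fold change was -0.52. The proteasome genes were further down than that median: all 31 of them lay below it, at a median of -0.90 for the whole set. They also moved more uniformly than those genes. The log2 fold changes of the 32 members had an SD of 0.16, against 0.42 among the genes at the same level and 1.496 among all genes tested. Such uniformity was not particular to the proteasome: the 6 listed genes of another complex, the COP9 signalosome (csn-1 to csn-6), lay between -0.88 and -0.40. These are descriptions of the set, without a test against other genes.

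**Figure D1:**
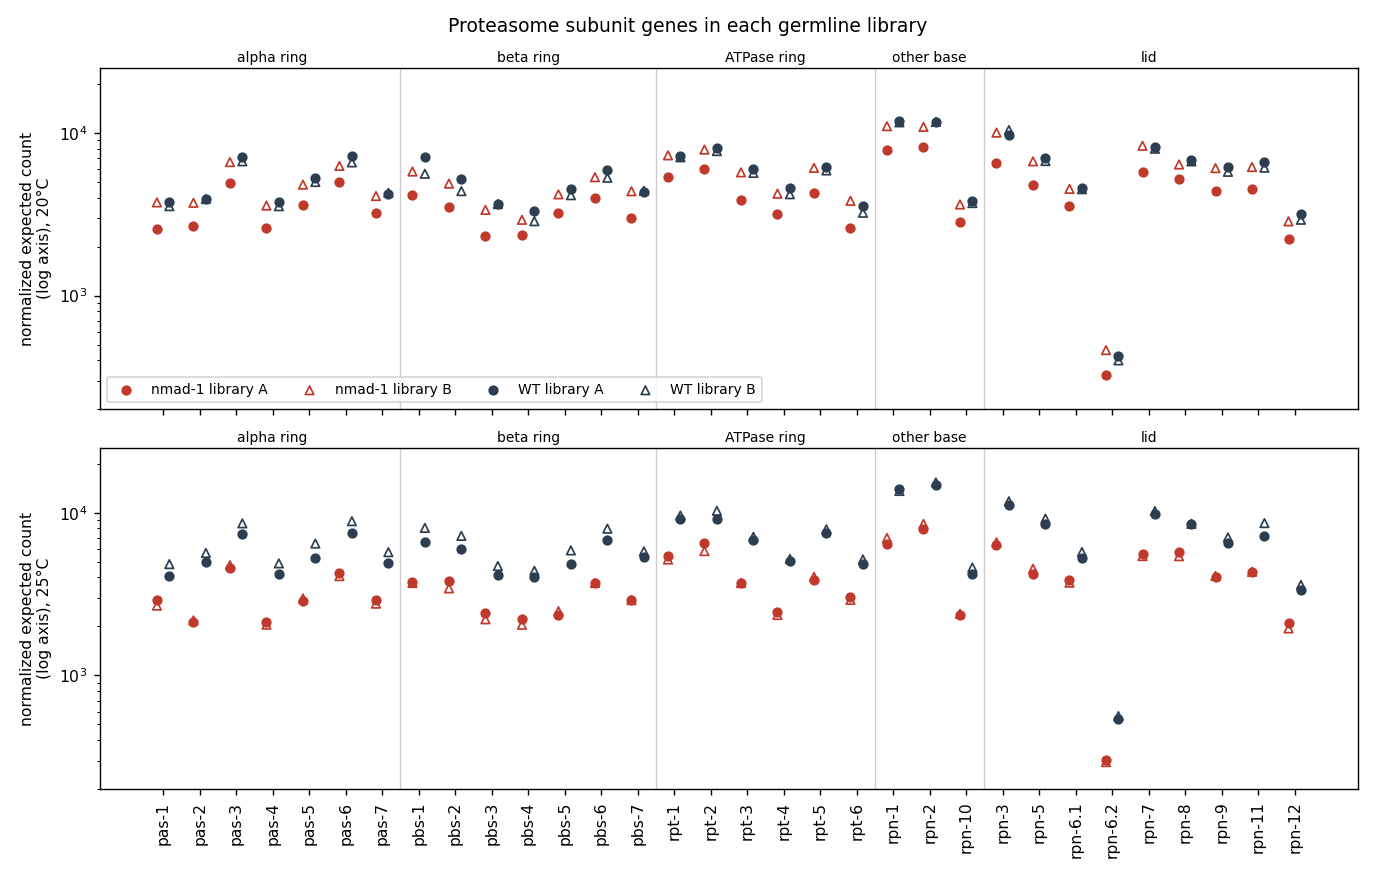
Normalized expected counts (log axis) of the 32 proteasome subunit genes in each library, at 20°C (top) and 25°C (bottom), with nmad-1 in red left of WT in dark blue and libraries A and B as filled circles and open triangles. At 25°C both nmad-1 values lie below both WT values for all 32 genes on this deposited scale, while scaling on ribosomal protein genes turns the median positive; at 20°C nmad-1 library A is the low one, and library B lies below both WT values in 12 genes, between them in 16 and above both in 4.

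At 25°C the alpha ring showed the widest range of any subcomplex. pas-2, an alpha subunit gene, had 2136 and 2179.8 normalized expected counts in nmad-1 at 25°C, against 5008 and 5657 in WT. This was the largest decrease of all 32 members: the log2 fold change was -1.30 ± 0.097 (SE, n = 2 per group; limma adjusted p = 0.00017), and the groups were far apart compared with the distance between replicates. For pas-4, another alpha subunit gene, the values were 2137 and 2052 in nmad-1 and 4226 and 4882 in WT, a log2 fold change of -1.12 ± 0.10. At the other end, pas-1 had 2902 and 2687 in nmad-1, against 4059 and 4832 in WT, a log2 fold change of -0.67 ± 0.11, the smallest decrease in the core particle. pas-3 had 4559 and 4752 in nmad-1, against 7390.3 and 8599 in WT, a log2 fold change of -0.78 ± 0.10. No pair of groups overlapped for these 4 genes, and the 7 alpha subunit genes had a median of -0.96. With ribosomal protein scaling, the sign turned for pas-1, pas-3 and pas-4 and not for pas-2, and it also turned for pas-1 by upper quartile and for pas-1 and pas-3 on proteasome scaling. Proteasome scaling divides each library by the median of the 32 members, so the set lies near 0 by construction. A turn on that scale means only that a gene fell less than the set.

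At 25°C the 7 genes of the beta ring lay between -1.14 and -0.87, with a median of -0.97. Their SD was 0.085, against 0.21 for the alpha ring and 0.094 for the 3 other base genes. The order of the rings was the reverse at 20°C, with an SD of 0.066 for the beta ring and 0.034 for the alpha ring. These spreads were not tested. The protease sites of the core reside in 3 of the beta subunits. pbs-5, which encodes the subunit with the chymotrypsin-like site, had 2353 and 2482 in nmad-1 at 25°C, against 4858 and 5866 in WT, and fell most in this ring (log2 fold change -1.14 ± 0.11, limma adjusted p = 0.00022). pbs-1, for the caspase-like site, had 3749 and 3698 in nmad-1, against 6602 and 8065 in WT (log2 fold change -0.97 ± 0.11). pbs-2, for the trypsin-like site, had 3793 and 3429 in nmad-1, against 6004 and 7200.3 in WT, and at -0.87 ± 0.11 it fell least of the beta subunit genes. The nmad-1 and WT libraries were separate for all 3 catalytic genes, and in each the 2 WT values differed by more than the 2 nmad-1 values did. The sign of pbs-1 and pbs-2 turned under ribosomal protein scaling, and that of pbs-5 did not.

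In the regulatory particle the ATPase ring spanned -1.09 to -0.66. The ATPase gene rpt-4 had 2458 and 2353 in nmad-1 at 25°C, against 5043 and 5198 in WT, and it had the largest decrease among the 18 regulatory genes (log2 fold change -1.09 ± 0.089, limma adjusted p = 0.00018). rpt-2, whose product helps to open the gate of the core, had 6480.3 and 5806 in nmad-1, against 9140.3 and 10267 in WT, a log2 fold change of -0.66 ± 0.10. The 6 ATPase genes had a median of -0.86, and for each of them both nmad-1 libraries were below both WT libraries. Of the other base subunits, the scaffold gene rpn-1 had 6390.0 and 6991 in nmad-1, against 13966 and 13601 in WT, a log2 fold change of -1.04 ± 0.092. The ubiquitin receptor gene rpn-10, which in C. elegans is needed for the germline to make sperm before oocytes, had 2354 and 2392 in nmad-1, against 4218 and 4606 in WT, a log2 fold change of -0.89 ± 0.093. Both genes were separate between the genotypes. The sign of rpt-2 turned under upper quartile, ribosomal protein and proteasome scaling, and that of rpt-4, rpn-1 and rpn-10 under ribosomal protein scaling only. Under proteasome scaling the turn means only that rpt-2 fell less than the set. The other ubiquitin receptor, rpn-13, is not a member by its listed name. It had 3479.8 and 3275 in nmad-1, against 5989 and 6332 in WT, and its decrease passed the test (log2 fold change -0.87 ± 0.090, limma adjusted p = 0.00025).

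The lid had the smallest median decrease, -0.83 over 9 genes, and held the 2 smallest decreases of all members. rpn-6.1, a scaffold subunit gene known in C. elegans for raising proteasome activity when it is overexpressed, had 3846 and 3716 in nmad-1 at 25°C, against 5279.8 and 5732 in WT. Its log2 fold change was -0.54 ± 0.091 (limma adjusted p = 0.0013), and the groups did not overlap. rpn-8, which encodes the inactive partner of the lid deubiquitinase, had 5709 and 5405 in nmad-1, against 8491 and 8544 in WT, a log2 fold change of -0.62 ± 0.087. The gene of that deubiquitinase, rpn-11, had 4338 and 4330.1 in nmad-1, against 7172 and 8633 in WT, a log2 fold change of -0.86 ± 0.11. rpn-5, another scaffold gene of the lid, fell most in the lid, with 4227 and 4523 in nmad-1, against 8532 and 9201 in WT, and a log2 fold change of -1.02 ± 0.092. The sign of rpn-6.1 was positive under all 5 other scalings, whereas that of rpn-8 turned under upper quartile, ribosomal protein and proteasome scaling and that of rpn-5 and rpn-11 under ribosomal protein scaling only. Under proteasome scaling, 1 of the 5, the turns mean only that rpn-6.1 and rpn-8 fell less than the set.

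rpn-6.2, the paralog of rpn-6.1, was by far the lowest member, with 303 and 294 in nmad-1 at 25°C, against 541 and 563 in WT (log2 fold change -0.88 ± 0.14, limma adjusted p = 0.00094). Its sign turned under ribosomal protein scaling. Per length of coding sequence, rpn-6.1 exceeded rpn-6.2 by 12.05 and 12.01 times in nmad-1 at 25°C, against 9.27 and 9.68 times in WT. At 20°C the same ratio was 10.4 and 9.29 in nmad-1, against 10.3 and 10.7 in WT. The ratio was thus higher in nmad-1 at 25°C only, with no test of that difference. Reads shared by the paralogs may have been split between them in the counting, so both values are uncertain to that extent.

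**Figure D2:**
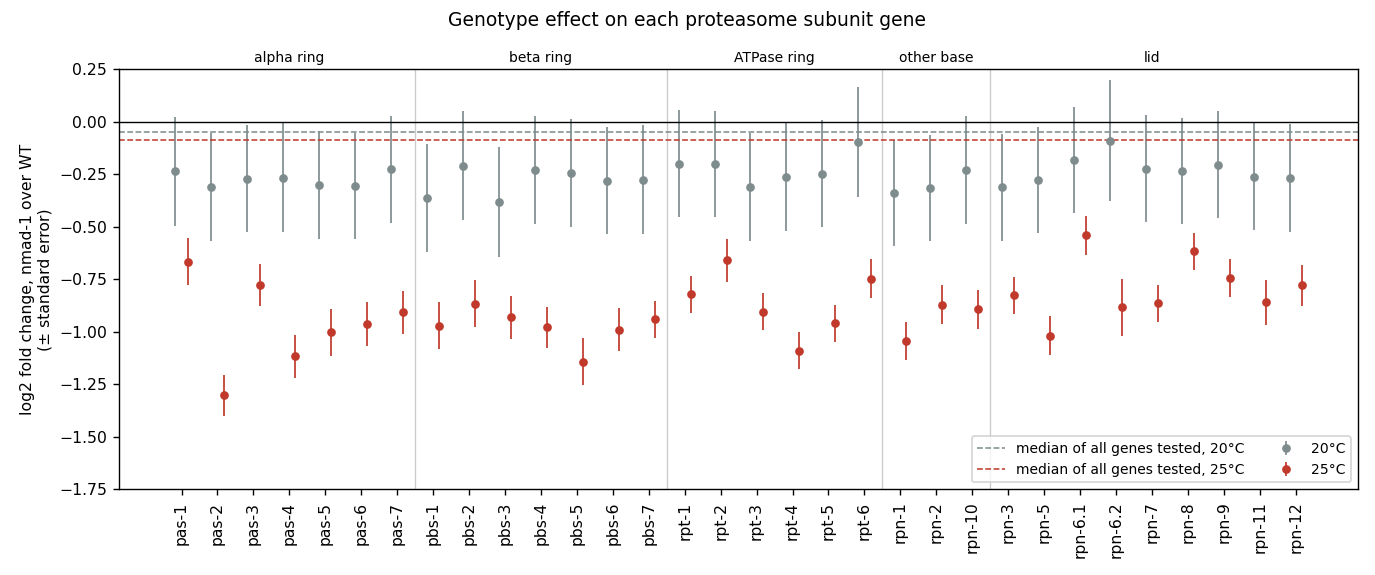
Log2 fold change (nmad-1 over WT) of each proteasome subunit gene at 20°C (grey) and 25°C (red) with its standard error, ordered by subcomplex; the dashed lines mark the medians of all genes tested, -0.05 and -0.09. At 25°C the members lie between -1.30 and -0.54 on the deposited scale. Under ribosomal protein scaling 10 passed as higher and none as lower (all genes 85.5% higher and 0.449% lower). At 20°C the members lie between -0.38 and -0.09 with standard errors of 0.25 or more.

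At 20°C no proteasome gene passed the test. The count was 0 of 32 with limma and the Benjamini-Hochberg adjustment, and also 0 of 32 at an unadjusted p under 0.05, the lowest p being 0.15, against 6.88% of all genes in either direction. Few genes passed at all at this temperature, 0.139% of 12260 as lower and 0.343% as higher. All 32 log2 fold changes were negative, as were 55.1% of those of all genes, but their sign turned in most members under upper quartile scaling. They lay between -0.38 for pbs-3, a beta subunit gene without a protease site, and -0.09 for rpn-6.2, with a median of -0.26. Both nmad-1 values were below both WT values in 12 of 32 members, against 19.1% of all genes tested.

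The 2 nmad-1 libraries at 20°C differed from each other throughout the set. Library nmad-1 A was below both WT libraries for all 32 genes, at median ratios of 0.689 and 0.747. Library nmad-1 B was below WT A in 26 genes and below WT B in 14, at median ratios of 0.946 and 1.008. The median ratio of B over A was 1.37 in nmad-1 at 20°C (1.24 to 1.54 over the members), whereas the corresponding ratio was 0.947 in WT at 20°C, 0.979 in nmad-1 at 25°C and 1.09 in WT at 25°C. Without library A, the 20°C median was -0.04 and no member passed. Without library B, the median was -0.48 and 30 of 32 passed as lower, with 24.5% of all genes. The call at 20°C therefore depended on which of the 2 libraries was used.

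pas-2 illustrates this pattern, with 2696 and 3717 in nmad-1 at 20°C, against 3934 and 3922 in WT. For pbs-5 the values were 3205 and 4189 in nmad-1, against 4546 and 4138 in WT. rpt-4 had 3166 and 4230.1 in nmad-1, against 4599 and 4196 in WT. The groups overlapped for pbs-5 and rpt-4 and were separate for pas-2. Among the rest, the catalytic genes pbs-1 (4140.0 and 5789 in nmad-1, 7067 and 5606 in WT) and pbs-2 (3502 and 4878 in nmad-1, 5199.9 and 4383 in WT) overlapped as well. So did pas-1 (2564 and 3739, against 3748 and 3544 in WT), pas-4 (2591 and 3575, against 3776 and 3541 in WT), rpt-2 (5967 and 7892, against 8071 and 7726 in WT) and rpn-11 (4544 and 6167, against 6596 and 6108 in WT). Both nmad-1 values lay below WT, that of library B narrowly, in pas-3 (4920.1 and 6612, against 7079.9 and 6684), rpn-1 (7834 and 10987, against 11837 and 11599) and rpn-5 (4772 and 6680.4, against 6971 and 6712). The same held for rpn-8 (5169 and 6390.5, against 6837 and 6682 in WT) and rpn-10 (2825 and 3630.0, against 3803 and 3704 in WT). In rpn-6.1 (3546 and 4527, against 4583 and 4503 in WT) and rpn-6.2 (324 and 463, against 424 and 400.3 in WT) they overlapped. In each of these 16 genes the low nmad-1 value was that of library A.

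The genotype effects at the 2 temperatures were compared by an interaction term over all 8 libraries. All 32 differences (25°C minus 20°C) were negative on the deposited scale, with a median of -0.65, but 25 were negative with equal library totals. Of these, 3 passed: pas-2 at -0.99 (limma adjusted p = 0.030), pbs-5 at -0.90 (adjusted p = 0.041) and rpt-4 at -0.83 (adjusted p = 0.049). Over all 11265 genes in this fit, 1.25% passed as more negative at 25°C and 8.07% as more positive, and the median difference was -0.11. An unadjusted p under 0.05 was reached by 25 members, the 3 included, against 9.51% of all genes in the negative direction. These calls were sensitive to single libraries. Without nmad-1 A at 20°C all 32 members passed, as did 32.7% of all genes in the more negative direction, and without any 1 of the other 7 libraries none did. For the remaining 29 members a difference between temperatures was not detected, and the interaction adjusted p reached 0.30 for rpn-6.1. Across the 32 members the log2 fold changes at 20°C and 25°C had a Pearson r of 0.44 and a Spearman rho of 0.51, a description over genes that share libraries within each temperature.

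Core and regulatory particles were then compared. At 25°C the 14 core genes had a median log2 fold change of -0.97 and the 18 regulatory genes one of -0.86, and their ranges overlapped over most of their width (-1.30 to -0.67 for the core, -1.09 to -0.54 for the regulatory particle). At 20°C the medians were -0.27 for the core and -0.24 for the regulatory particle. The ratio of the summed core values to the summed regulatory values does not depend on how a library is scaled. At 25°C it was 0.550 and 0.537 in nmad-1, against 0.560 and 0.618 in WT. At 20°C it was 0.579 and 0.568 in nmad-1, against 0.599 and 0.569 in WT. The ratio was lower in both nmad-1 libraries than in both WT libraries at 25°C, but the 2 WT libraries were further from each other than the closest nmad-1 and WT libraries were. On the log2 scale the ratio averaged -0.88 ± 0.024 in nmad-1 at 25°C and -0.77 ± 0.10 in WT (SD, n = 2 each), and -0.80 ± 0.019 in nmad-1 at 20°C and -0.78 ± 0.052 in WT. The difference at 25°C, -0.11, was thus close to the SD of the WT replicates, and this ratio over the members was described without a test. In WT at 25°C the core genes also differed more between replicates (median ratio 1.17, B over A) than the regulatory genes did (1.06).

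As a share of all values outside ribosomal RNA genes, the core genes took 0.263% and 0.250% in nmad-1 at 25°C, against 0.322% and 0.350% in WT. The regulatory genes took 0.478% and 0.466% in nmad-1, against 0.575% and 0.566% in WT. The groups were separate for both particles at 25°C. At 20°C the core took 0.292% and 0.319% in nmad-1, against 0.328% and 0.311% in WT, and the regulatory particle 0.504% and 0.562%, against 0.547% and 0.546%. Here the groups overlapped for both. Together the 32 genes made up 0.741% and 0.716% of the values in nmad-1 at 25°C, against 0.897% and 0.916% in WT, and 0.795% and 0.881% in nmad-1 at 20°C, against 0.875% and 0.856% in WT.

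**Figure D3:**
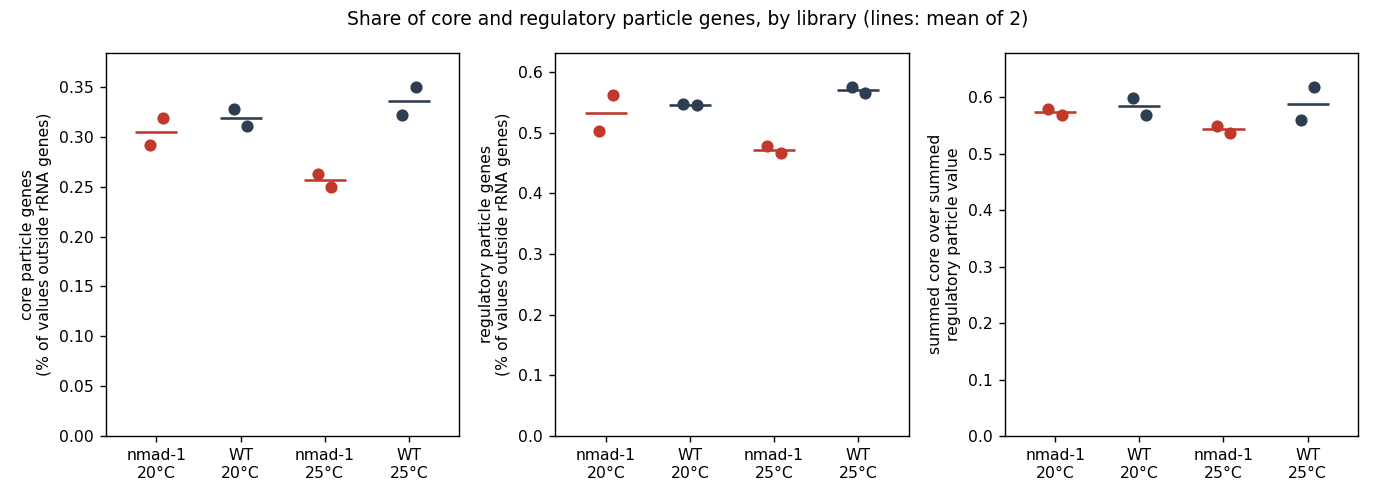
Share of each library's values outside ribosomal RNA (rRNA) genes taken by the 14 core genes (left) and the 18 regulatory genes (middle), and the ratio of the summed core to the summed regulatory values (right), with 1 point per library and a line at the mean of 2. The shares are lower in both nmad-1 libraries than in both WT libraries at 25°C (core 0.250% to 0.263%, against 0.322% to 0.350%), while the ratio stays between 0.537 and 0.618 in all 8 libraries.

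The members were next compared with each other. Each library at 25°C was scaled on the median of the 32 proteasome genes, so that a gene which changed along with the complex lies near 0. On this scale 3 members were lower in nmad-1 and 1 was higher, with 2.05% and 69.3% of all genes tested in those directions. The lower ones were pas-2, by -0.46 ± 0.11 (SE; limma adjusted p = 0.0035), pbs-5, by -0.30 ± 0.11 (adjusted p = 0.032) and pas-4, by -0.27 ± 0.11 (adjusted p = 0.045), all of the core particle. rpn-6.1 was the higher one, by 0.30 ± 0.11 (adjusted p = 0.026). The values for rpt-4, -0.25 (adjusted p = 0.070), and rpn-8, 0.23 (adjusted p = 0.083), did not pass. The p-values were adjusted over all genes tested, most of which passed on this scale, and not over the 32 members. A call near 0.05 can therefore arise by chance among 32 members. Whether the subunit genes changed by different factors was not tested among the members alone. On this scale pas-2 lay lowest and rpn-6.1 highest relative to the set. Scaled in this way, the median was -0.056 for the 32 members and 0.80 for all genes tested. Germ cell markers had a median of -0.080, oocyte markers 0.028, and sheath and spermatheca markers 1.08. The medians of the sperm, muscle, intestine, neuron, and cuticle and epidermis markers lay between 1.96 and 4.87. Whether these cells bear on the proteasome set was not tested.

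**Figure D4:**
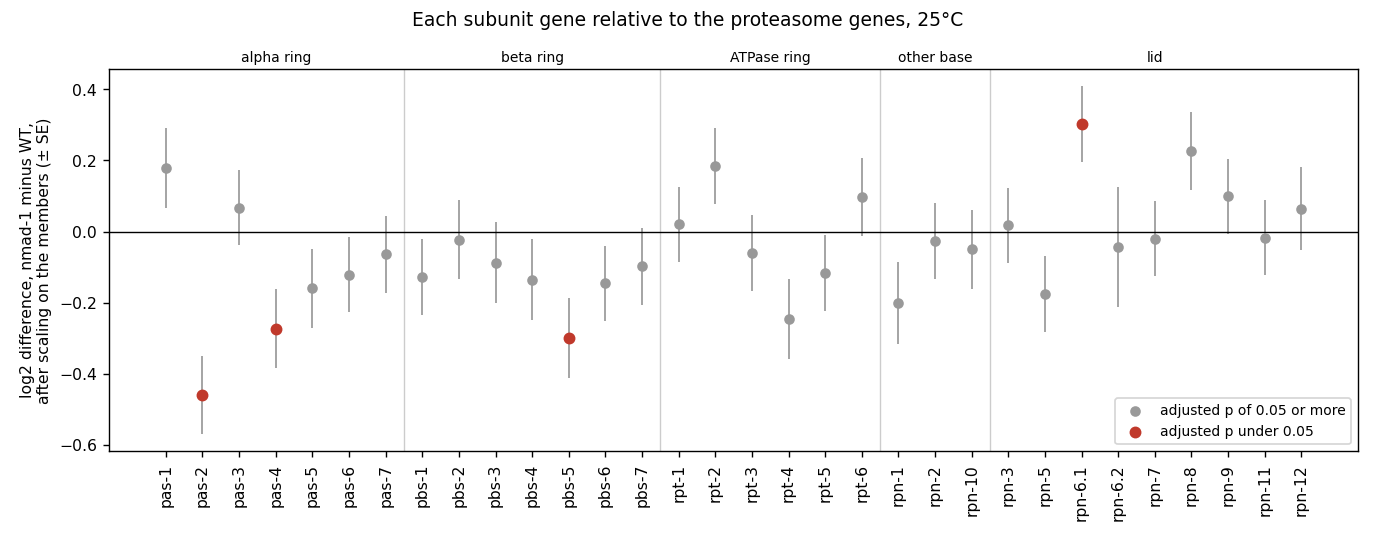
Log2 difference (nmad-1 minus WT) of each proteasome gene at 25°C after every library was scaled on the median of the 32 members, with its standard error; red marks an adjusted p under 0.05. pas-2 (-0.46), pbs-5 (-0.30) and pas-4 (-0.27) lie below the set and rpn-6.1 (0.30) above it, while the other 28 members do not pass the test.

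At 25°C the size of the decrease was set in part by how libraries were scaled, which moved all genes together. Scaled to the same total, 21 of 32 were lower and none higher (all genes 6.3% lower and 51.3% higher), at medians of -0.40 for the core and -0.29 for the regulatory particle. Scaled to the same total outside ribosomal RNA genes, 22 of 32 were lower and none higher (all genes 5.77% and 49.7%), at the same medians of -0.40 and -0.29. Upper quartile scaling left 5 lower and none higher (all genes 2.58% and 59.4%), at -0.24 and -0.13. Scaling on the proteasome members places the set near 0 by construction and cannot show its direction. Of the other scalings run, only that on ribosomal protein genes turned the sign of the set, with 10 of 32 higher and none lower (all genes 85.5% higher and 0.449% lower), at 0.16 for the core and 0.27 for the regulatory particle. At 20°C that scaling gave 29 of 32 as higher, with 43.4% of all genes. Ribosomal protein genes were themselves lower in nmad-1, at 7.54% and 7.42% of the values outside ribosomal RNA at 25°C, against 10.4% and 12.3% in WT, and at 8.67% and 8.23% at 20°C, against 12.2% and 11.2% in WT.

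A scaling shifts all genes of a library alike, so the distance of the proteasome set from the median of all genes tested is nearly fixed by construction. Scaling shifted that median at 25°C by more than 0.1, from -0.09 on the deposited scale to 0.51 with equal totals, 0.68 by upper quartile and 1.105 on ribosomal protein genes. The member median stood 0.81 below it on the deposited scale (difference -0.81), and the differences were -0.84 with equal totals, -0.85 by upper quartile and -0.87 on ribosomal protein genes. This distance does depend on which genes make up that median: at 25°C it was -0.50 over genes with a mean of at least 100 and -1.31 without a filter. At 20°C it was -0.21 on the deposited scale, -0.05 without nmad-1 library A and -0.40 without library B.

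**Figure D5:**
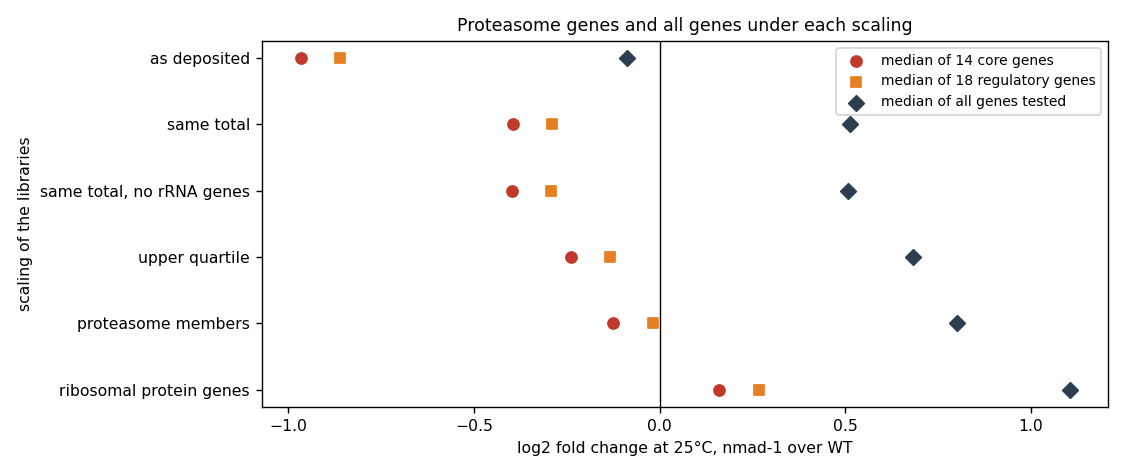
Median log2 fold change at 25°C (nmad-1 over WT) of the 14 core genes, the 18 regulatory genes and all genes tested, under the deposited scaling and 5 others. The member medians are negative under every scaling shown except that on ribosomal protein genes (core 0.16, regulatory particle 0.27), and their distance from the median of all genes is nearly fixed by construction. Scaling on the proteasome members places them near 0 by construction.

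Levels of different subunits can be compared only per length. Per kilobase of coding sequence and per 1000000 of the values outside ribosomal RNA, pas-3 was the highest member in each of the 4 groups, with 424 in nmad-1 at 20°C, 440.0 in WT at 20°C, 375 in nmad-1 at 25°C and 433 in WT at 25°C. The lowest apart from rpn-6.2 was rpt-6 in 3 groups (142 in nmad-1 and 130.0 in WT at 20°C, 163 in WT at 25°C) and rpt-4 in nmad-1 at 25°C (119). Between the highest and the lowest of these 31 genes the levels differed by only 2.99 times in nmad-1 and 3.38 times in WT at 20°C, and by 3.14 times in nmad-1 and 2.66 times in WT at 25°C. The median level of the core genes was above that of the regulatory genes in each group. At 25°C it was 233 for the core and 180.2 for the regulatory particle in nmad-1, against 317 and 239 in WT. Only coding length was divided out, so reads from untranslated parts raise the level most in genes with short coding sequence. Coding lengths ran from 606 (pbs-4) to 852 bases (pbs-5) in the core. In the regulatory particle they ran from 750 (rpn-12) to 2943 bases (rpn-1). The order of the particles therefore cannot be told apart from their coding length. By WBcel235, 10 of the 32 genes lie on chromosome I, 7 on II, 7 on III, 3 on IV and 5 on V. None lies on X, which holds 12.95% of the tested genes with a known chromosome.

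The wider ubiquitin system was taken from 5 gene lists, described on the deposited scale beside the 38% lower and 32.8% higher among all genes. Among the 1666 genes at the level of the proteasome members, 84.3% were lower, at a median of -0.52. The lists were not matched for level. With equal totals, 6.3% of all genes were lower and 51.3% higher. On ribosomal protein scaling, 0.449% of all genes were lower and 85.5% higher. At 25°C, all 10 genes of ubiquitin, its activation and the CDC-48 segregase fell on the deposited scale, with a median of -0.89, and 3 of them were higher and none lower on ribosomal protein scaling. The largest decrease among them was in cdc-48.1, which extracts ubiquitinated proteins for the proteasome, with 11463 and 12229.8 in nmad-1, against 27215 and 29843 in WT (log2 fold change -1.27, limma adjusted p = 0.00018). All 6 listed genes of the COP9 signalosome, which removes NEDD8 from cullins, fell as well, with a median of -0.60. With equal totals 1 of the 6 was lower, and on ribosomal protein genes 5 of the 6 were higher. The largest decrease among them on the deposited scale, -0.88, was in the catalytic subunit gene csn-5. Among 27 genes of cullin ligases and the anaphase promoting complex 25 fell and 1 rose, with a median of -0.63, whereas 6 were lower and 4 higher with equal totals and 21 were higher on ribosomal protein genes. The largest decrease was in emb-1, a subunit gene of the anaphase promoting complex (-1.14). The exception was cul-6, a cullin gene known from the response of C. elegans to intracellular pathogens, with 36.6 and 84.5 in nmad-1, against 8.91 and 8.77 in WT (log2 fold change 2.53, adjusted p = 0.0027).

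Proteasome partners and regulators gave a smaller median of -0.53, with 7 of 10 lower and none higher, but 1 lower and 2 higher with equal totals and 9 higher on ribosomal protein genes (all genes 51.3% and 85.5% higher). The largest decrease was in ubh-4, the deubiquitinase bound to the regulatory particle (-0.95). The lid partner gene dss-1, at -0.36 (adjusted p = 0.053), did not pass. Ubiquitin conjugating enzymes did not move as a group: 8 of 16 tested were lower and 3 higher, with a median of -0.22, and 1 lower and 8 higher with equal totals. Among them ubc-18 had the largest decrease (-1.05). ubc-23 passed as higher at very low values, 9.15 and 43.4 in nmad-1 and 1.98 and 0 in WT, and no fold is given for it. At 20°C no gene of any of these 5 lists passed the test with all libraries. The lists were not fitted again with a library left out, so their dependence on nmad-1 A or B is not known. At an unadjusted p under 0.05 there was 1 gene each in the ubiquitin, conjugating enzyme and cullin lists and none in the others, beside the 6.88% of all genes.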

How the data were processed

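RNA from extracted germlines was sequenced in 8 samples, 2 in each of 4 groups. The authors trimmed the reads, aligned them to WS220 (ce10) with Bowtie2 2.2.9 and ran RSEM 1.3.0. The deposited values are a signal per gene and library and were read here, from their steps, as RSEM expected counts over a size factor. The deposited tables of comparisons (posterior probabilities and fold changes) were not used. Each column took its group from the comparison that the sample descriptions name, and 0 columns had none.

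Of the values above 0, 90.9% to 92.1% were whole multiples (tolerance 0.01) of the step of 1 read, which gave the depth but was too few for a count test. The main test was limma 3.58.1 (R 4.3.3) on log2(value + 1), a scale that understates changes of low genes, with a variance trend, for each gene whose mean reached 10 in the table. P-values were adjusted by Benjamini-Hochberg over all genes tested, at 0.05. The code was tested on simulated data. One model over 8 libraries gave the interaction. Replicates differed beyond sampling noise in every group (chi-square per degree of freedom 21.7 to 113 over genes). Summed values were computed in Python 3.11.15. Of 46739 gene IDs, 43720 had a current symbol. Chromosomes and coding lengths came from WBcel235, another build than WS220, so no sequences or coordinates are given.

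Values in every library are given for the 3 members with the lowest and the 3 with the highest log2 fold change at 25°C in each particle, those past the threshold in the interaction, the catalytic beta subunits, rpn-6.1, rpn-6.2, rpn-10 and rpn-11, and, from each list, for genes among the largest changes. The members, lists and tests were chosen with earlier results of these data known, and rpn-13, dss-1, rpt-6 and pbs-3 were named after their values were seen. Cell markers covered germ cells, oocytes, sperm, muscle, intestine, cuticle and epidermis, neurons, and sheath and spermatheca. Pseudocounts, filters, scalings, the variance trend, the form of the core to regulatory ratio and the set of libraries were varied in turn.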

Additional observations from a re-analysis of the deposited data

Results flagged for a closer look

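The genotype effect differed between the temperatures by the interaction test in 3 members. The difference of log2 fold changes (25°C minus 20°C) was -0.99 for pas-2, -0.90 for pbs-5 and -0.83 for rpt-4. All 3 lost the call when any 1 library other than nmad-1 A at 20°C was left out.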

How the results depend on the processing

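Other pseudocounts, other filters, limma without the trend and leaving out any library kept all 32 members lower at 25°C, with medians between -0.99 and -0.83 without a library (core -1.06 to -0.85, regulatory particle -0.90 to -0.81). Scaling moved these results, and the shares of all genes called under each scaling at 25°C are given above. With equal totals 21 members were lower (median -0.33, core -0.40, regulatory -0.29), with equal totals outside ribosomal RNA the medians were -0.33, -0.40 and -0.29, by upper quartile 5 were lower (-0.17, -0.24 and -0.13), on proteasome members 3 were lower and 1 higher (-0.056, -0.12 and -0.019), and on ribosomal protein genes 0 were lower and 10 higher (0.23, 0.16 and 0.27). Over all 32 members at 25°C, 2 stayed negative on ribosomal protein genes, 28 by upper quartile and 31 with equal totals. On proteasome members 22 stayed negative, a scale where the set lies near 0 by construction. Single genes are listed only for the 16 members given by library. Reversed among them at 25°C on ribosomal protein genes were pas-1 (0.46), pas-3 (0.35), pas-4 (0.012), pbs-1 (0.16), pbs-2 (0.26), rpt-2 (0.47), rpt-4 (0.039), rpn-1 (0.085), rpn-5 (0.11), rpn-6.1 (0.59), rpn-6.2 (0.24), rpn-8 (0.51), rpn-10 (0.24) and rpn-11 (0.27). Reversed by upper quartile were pas-1 (0.062), rpt-2 (0.068), rpn-6.1 (0.19) and rpn-8 (0.11), on proteasome members pas-1 (0.18), pas-3 (0.067), rpt-2 (0.18), rpn-6.1 (0.30) and rpn-8 (0.23), and with equal totals rpn-6.1 (0.030, and 0.027 outside ribosomal RNA). At 20°C the medians of all members, core and regulatory particle were 0.035, 0.025 and 0.058 by upper quartile, 0.032, 0.022 and 0.055 on proteasome members, and 0.46, 0.45 and 0.48 on ribosomal protein genes, where 29 were higher. The core median was -0.057 with equal totals outside ribosomal RNA. Leaving out a library gave 0 to 30 lower members, with medians between -0.48 and -0.045 (core -0.49 to -0.063, regulatory -0.46 to -0.018). Of all 32 members at 20°C, 0 stayed negative on ribosomal protein genes, 9 by upper quartile and 9 on proteasome members. Only pas-2, pbs-5 and rpt-4 were followed singly at 20°C. They reversed on ribosomal protein genes (pas-2 0.41, pbs-5 0.47, rpt-4 0.45), by upper quartile (pbs-5 0.055, rpt-4 0.034) and on proteasome members (pbs-5 0.052, rpt-4 0.032). In the interaction 3 members passed as reported, 2 with either other pseudocount or equal totals outside ribosomal RNA, 4 at a mean of at least 100, 1 without the filter or on ribosomal protein genes, 0 with equal totals, by upper quartile, on proteasome members or without the trend, and 0 to 32 with a library left out. For the interaction, the share of all genes is given above only for the fit as reported (1.25% more negative) and without nmad-1 A at 20°C. Under the other settings the counts of members cannot be set against all genes. The cause of the shifts between settings was not tested. The ratio of core to regulatory particle moved by less than the SD of replicates in every form. No paired analysis was possible because the columns carry no replicate numbers, so the replicate block was not run. With 2 libraries a group, a leave-out leaves 1 library that is assumed to vary like the others.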
